A study of Bos taurus with 31 samples.

Results

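The genes described here encode 10 proteins with which the liver senses bacterial endotoxin or answers inflammation: LBP and CD14 (endotoxin sensing), IL6R and STAT3 (interleukin-6 signalling), and the plasma proteins HP, CRP, ITIH3, ITIH4, CP and HPX. They were taken by symbol from the raw gene count table, in which all 10 were found among 24616 genes. All 10 also had at least 20 reads summed over the cows, as had 15916 genes in total.

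The libraries were made from liver biopsies of 31 lactating German Holstein cows in week 16 of a feeding trial. Control (CON) cows received a control ration and glyphosate (GLY) cows a ration with peas, wheat grain and straw carrying residues of a glyphosate herbicide, each at a high (HC, 60%) or a low (LC, 30%) concentrate feed proportion of the dry matter. This gave 4 groups, CONHC with 8 cows, CONLC with 8, GLYHC with 8 and GLYLC with 7. Each library is 1 cow, the control ration was not free of glyphosate, and the glyphosate reached the cows as a formulation with other ingredients. A puncture biopsy holds all the cell types of the liver, so a lower level of a transcript in fewer cells and less of it per cell cannot be told apart.

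Endotoxin, the lipopolysaccharide of Gram-negative bacteria, is released in the rumen and can reach the liver through the portal vein, and rations rich in rapidly fermented starch are known to raise its rumen level. In the blood, lipopolysaccharide-binding protein (LBP) hands it to CD14, which passes it to the TLR4 and LY96 receptor complex of macrophages. Macrophages then release interleukin-6, and hepatocytes bind it through IL6R and IL6ST, activate STAT3 and secrete acute phase proteins, of which haptoglobin (HP) and the serum amyloid A proteins are the main ones in cattle. The question for these genes was whether their levels differed between the concentrate proportions or between the GLY and CON rations.

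Between 11675775 and 36675542 reads were assigned to genes per cow. The values below are CPM, read counts scaled to a common library total, with the trimmed mean (TMM) normalization, and no gene of the 10 had fewer than 243 reads in any cow. Cow 912 of GLYLC stood apart from the other libraries. Its 10 hepatocyte marker genes summed to 55690 CPM against 94610 to 173500 in the other 30 cows, and its 6 intestinal epithelium markers to 404.3 CPM against at most 104.9. The intestinal genes FABP2, MUC13 and OLFM4 had a median of 0 CPM over the cows and reached 205.8, 25.05 and 11.5 CPM in cow 912. Its lymphocyte markers summed to 174.7 CPM against at most 90.2. The main values that rest on this cow are given with and without it.

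None of the 10 genes passed the threshold in any of the 7 comparisons by edgeR's quasi-likelihood test, which was an unadjusted p under 0.05 together with a Benjamini-Hochberg adjusted p under 0.1 over all genes tested. Over all genes, this rule called 1.45% in HC versus LC over all cows, 0.201% in GLYHC versus GLYLC and 0.0628% in GLYLC versus CONLC. It called 0% in CONHC versus CONLC, in GLYHC versus CONHC, in GLY versus CON over all cows and for the interaction of both factors. At an unadjusted p under 0.05, edgeR placed 2 of the 10 genes in HC versus LC over all cows (13.7% of all genes), 3 in CONHC versus CONLC (5.96%), 3 in GLYHC versus GLYLC (12.5%) and 6 in GLYLC versus CONLC (5.65%). The corresponding counts were 0 in GLYHC versus CONHC (2.92%), 1 in GLY versus CON over all cows (3.92%) and 3 for the interaction (4.21%). DESeq2 fitted to all cows also called 0 of the 10 in every comparison. Fitted to the compared groups alone it called 2 in CONHC versus CONLC, HPX and STAT3, against 0.503% of all genes, and 0 in GLYHC versus GLYLC against 0.559%.

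**Figure D1:**
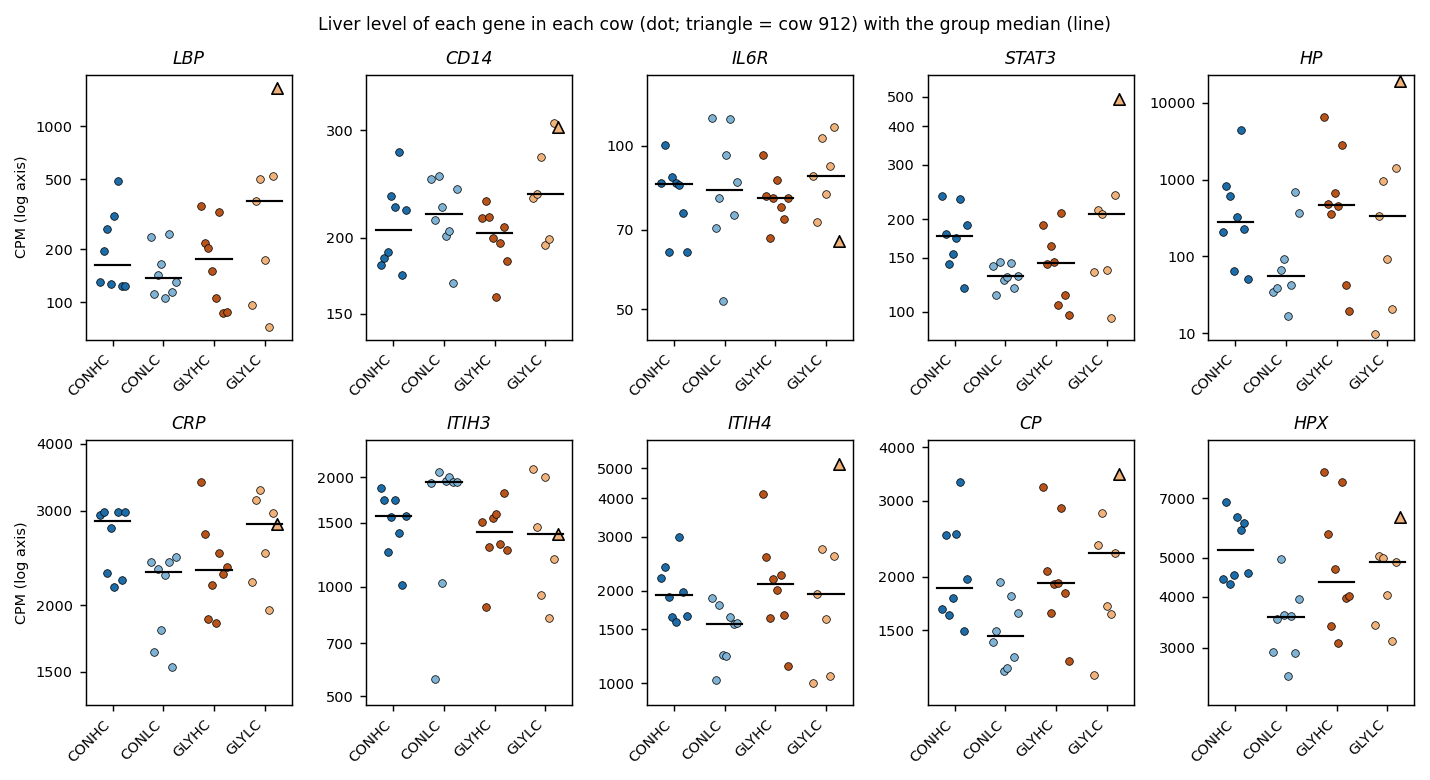
Level of each of the 10 genes in the 31 cows, in CPM on a log axis. Each dot is 1 cow, the triangle is cow 912 of GLYLC, and the line is the group median. The groups overlap for every gene, HP spans 9.75 to 19490 CPM, and cow 912 is highest for LBP, STAT3, HP, ITIH4 and CP.

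LBP, the plasma protein that lifts endotoxin out of bacterial membranes, ranged from 123.2 to 491.3 CPM in CONHC (median 162.2) and from 106.3 to 244.7 CPM in CONLC (median 136.4). In GLYHC it lay between 86.95 and 353.9 CPM with a median of 177, and in GLYLC between 72.11 and 1641 CPM with a median of 374.9. The groups overlapped in every comparison, and GLYLC held both the lowest cow (544) and the highest (912). The log2 fold change of HC over LC was 0.49 (SE 0.45, adjusted p = 0.96) in CON cows and -1.34 (SE 0.47, adjusted p = 0.24) in GLY cows by edgeR's quasi-likelihood test. GLYLC exceeded CONLC by 1.63 on the log2 scale (SE 0.47, edgeR adjusted p = 0.33). The difference between the HC over LC effects in GLY and CON was -1.83 (SE 0.65, edgeR adjusted p = 0.9985). Without CONHC cow 144 the value in CON cows was 0.21. Without cow 912 the estimates were -0.60 for GLYHC versus GLYLC, 0.89 for GLYLC versus CONLC and -1.09 for the interaction, so this cow carried part of each difference.

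CD14, the receptor that takes up endotoxin from LBP on monocytes and macrophages and is also secreted by hepatocytes, varied little. Its range was 173.9 to 276.8 CPM in CONHC, 168.4 to 252.6 in CONLC, 160.1 to 229.9 in GLYHC and 194.3 to 308.6 in GLYLC, with medians of 205.6, 218.9, 203.9 and 236.1 CPM. HC cows had the lower mean. Their log2 fold change over LC cows was -0.18 over all cows (SE 0.080, adjusted p = 0.30) and -0.31 in GLY cows (SE 0.11, adjusted p = 0.25) by edgeR's quasi-likelihood test. In CON cows it was -0.06 (SE 0.11), and the GLY and CON effects differed by -0.25 (SE 0.16, edgeR adjusted p = 0.9985). Leaving out cow 912 gave -0.15 over all cows and -0.26 in GLY cows.

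The receptor complex itself was measured at low levels. TLR4, which signals once endotoxin is bound, ranged from 2.13 to 9.56 CPM over the cows and its log2 fold change of HC over LC was 0.40 (SE 0.14, edgeR adjusted p = 0.18). LY96, which holds the lipid part of endotoxin in the complex, ranged from 1.54 to 4.68 CPM. Of the 17 genes listed for the endotoxin receptor and its signalling, all 17 were tested and 0 were called in HC versus LC over all cows. At an unadjusted p under 0.05, 3 were higher in HC and 1 lower (23.5% against 13.7% of all genes). The list's median log2 fold change was 0.03 beside -0.01 over all genes tested. The 3 were TLR4, PLTP, a lipid transfer protein of the LBP family (0.43, SE 0.18), and AOAH, an enzyme that deacylates endotoxin (0.50, SE 0.21). The lower one was SCARB1, a lipoprotein receptor (-0.15, SE 0.070). Without cow 912, 3 were higher and 0 lower.

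TLR4, AOAH and PLTP are also expressed by macrophages, and the macrophage markers moved in the same direction. Of all genes tested, 13.7% were at an unadjusted p under 0.05 in HC versus LC over all cows (11.9% without cow 912) and 1.45% were called. Of 14 Kupffer cell and monocyte markers, 10 were higher in HC at this p and 2 were called. The called ones were CD5L (log2 fold change 0.41, SE 0.11, edgeR adjusted p = 0.086) and CD68 (0.61, SE 0.17, edgeR adjusted p = 0.095). Without cow 912, 9 were higher and 0 were called. The 14 markers summed to 620.4 to 1742 CPM in CONHC and 728.4 to 1820 in GLYHC, against 774.7 to 1428 in CONLC and 769.8 to 1454 in GLYLC. CD14 did not follow this list. Over the 31 cows, after removal of the group means, its log2 CPM had a Pearson correlation of -0.35 with the log2 sum of the markers (-0.31 without cow 912), a description over values from the same libraries. This was not particular to CD14. The rest of the 10 genes also had negative values, from -0.02 for HP (0.07 without cow 912) to -0.42 for CRP. The part of macrophage content in the levels of these genes was not tested. The 8 neutrophil markers summed to 10.23 to 40.64 CPM in all cows, with 0 of 8 at an unadjusted p under 0.05. Of the other cell type markers, all 6 of stellate cells and fibroblasts were lower in HC at this p, and DCN was called (-0.50, SE 0.10, edgeR adjusted p = 0.027). CONLC cow 103 reached a sum of 2139 CPM for this list, against a CONLC median of 203.8, and cow 912 had 228.1. In GLYHC versus GLYLC, which does not contain cow 103, 2 of the 6 were lower and 0 higher at this p (33.3% against 12.5% of all genes). For HC versus LC over all cows without cow 912, 4 of the 6 were lower at this p and 1 was called. The count without cow 103 is not given, so how far it rests on that cow was not tested. Of 10 hepatocyte markers 1 was higher at this p, APOB (0.27, SE 0.11), with 2 higher and 1 lower without cow 912, and of the endothelial, bile duct, lymphocyte and erythroid markers 0. Of the 6 intestinal markers 5 were lower and FABP2, MUC13 and OLFM4 called. Without cow 912, 3 of the 6 had enough reads to be tested and 0 were at this p.

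IL6R, the ligand-binding chain of the interleukin-6 receptor, had the narrowest range of fold changes over the comparisons of the 10 genes. It ranged from 63.6 to 100.4 CPM in CONHC, 51.71 to 112.6 in CONLC, 67.64 to 96.1 in GLYHC and 66.64 to 108.1 in GLYLC, and the medians were 84.88, 82.83, 80.13 and 87.99 CPM. Its log2 fold changes lay between -0.12 and 0.03 over the 7 comparisons, with SEs of 0.091 to 0.18. IL6ST, the signalling chain shared by this cytokine family, ranged from 46.35 to 97.21 CPM. The cytokine gene IL6 had too few reads to be tested.

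STAT3, the transcription factor that interleukin-6 activates and that drives the acute phase genes, spread over 113.7 to 145.2 CPM in CONLC (median 130.4) and 119.3 to 237.3 CPM in CONHC (median 176.1). Of the 8 CONHC cows, 6 were above the highest CONLC cow. The GLYHC range was 97.48 to 210.1 CPM (median 144) and the GLYLC range 95.49 to 491.8 CPM (median 208.2). HC over LC gave a log2 fold change of 0.44 in CON cows (SE 0.22, adjusted p = 0.83) and -0.57 in GLY cows (SE 0.23, adjusted p = 0.29) by edgeR's quasi-likelihood test. With the CON groups fitted alone, DESeq2 called it (0.45, SE 0.12, Benjamini-Hochberg adjusted p = 0.079), whereas its adjusted p was 0.79 by DESeq2 over all cows and 0.40 to 1 over the edgeR settings. GLYLC exceeded CONLC by 0.72 (SE 0.23, edgeR adjusted p = 0.44). The GLY and CON concentrate effects differed by -1.01 (SE 0.32, edgeR unadjusted p = 0.0032, adjusted p = 0.9985), and 0.258% of all genes had a smaller p there. Without cow 912 the values were -0.23 for GLYHC versus GLYLC, 0.39 for GLYLC versus CONLC and -0.68 for the interaction.

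SOCS3, the feedback inhibitor that STAT3 induces, ranged from 1.10 to 17.78 CPM, with its highest value in GLYHC cow 32. Of the 18 genes listed for interleukin-6 family receptors and signalling, 16 were tested and 0 were called in HC versus LC over all cows. JAK2, the kinase on the receptor, was the single one at an unadjusted p under 0.05 (log2 fold change 0.17, SE 0.065, edgeR adjusted p = 0.23). This was 6.25% of the list against 13.7% of all genes. The list's median was 0.05. Without cow 912, 2 were at this p, both higher (12.5% against 11.9% of all genes).

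HP, the haemoglobin-binding protein used as an inflammation marker in cattle, was the most variable of the 10 genes. Its levels were 50.37 to 4435 CPM in CONHC (median 277.5), 16.56 to 689.5 in CONLC (median 54.94), 19.64 to 6569 in GLYHC (median 473.1) and 9.75 to 19490 in GLYLC (median 339.2). The highest cow exceeded the lowest 41.65-fold in CONLC, which had the narrowest range, and 2000-fold in GLYLC. The log2 fold change of HC over LC was 2.33 in CON cows (SE 1.23, adjusted p = 0.84) and -1.16 in GLY cows (SE 1.22, adjusted p = 0.75) by edgeR's quasi-likelihood test. Leaving out CONHC cow 144 brought the CON value to 0.98, and leaving out cow 912 turned the GLY value to 1.61. Over all cows the HC over LC value was 0.62 (SE 1.03), 1.99 (SE 0.79, edgeR adjusted p = 0.29) without cow 912 and -0.09 without cow 144. DESeq2 over all cows gave 1.32 (SE 0.64, Benjamini-Hochberg adjusted p = 0.32).

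The GLY groups had the higher mean HP level at both concentrate proportions, by amounts that rested on few cows. GLYLC exceeded CONLC by 4.24 on the log2 scale (SE 1.35, edgeR adjusted p = 0.45), by 1.47 (SE 1.12) without cow 912, and by 1.35 when DESeq2 was fitted to these groups alone. GLYHC exceeded CONHC by 0.76 (SE 1.18), with -0.28 without GLYHC cow 32 and 2.1 without CONHC cow 144. DESeq2 fitted to these groups alone gave 2.05 (SE 0.90, Benjamini-Hochberg adjusted p = 0.9997). DESeq2 ran with its defaults, which can replace outlier counts in groups of this size. Whether HP counts of the extreme cows were replaced was not recorded, so its HP values are not a separate reading of all cows. Over all cows GLY versus CON gave 2.46 (SE 1.04, edgeR unadjusted p = 0.024, adjusted p = 0.9999) and 1.09 without cow 912. The DESeq2 value over all cows was 1.77 (SE 0.64, Benjamini-Hochberg adjusted p = 0.9998). The lowest edgeR adjusted p of HP over all settings and comparisons was 0.26.

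CRP, a pentraxin that binds microbial surfaces and responds weakly in cattle, ranged from 2160 to 2984 CPM in CONHC (median 2865) and from 1532 to 2453 CPM in CONLC (median 2306). The GLYHC cows lay at 1848 to 3389 CPM (median 2320) and the GLYLC cows at 1956 to 3274 CPM (median 2837). Of the 8 CONHC cows, 5 were above every CONLC cow. The log2 fold change was 0.34 for CONHC versus CONLC (SE 0.13, adjusted p = 0.73) and 0.36 for GLYLC versus CONLC (SE 0.13, adjusted p = 0.69) by edgeR's quasi-likelihood test, so both contrasts share the low CONLC cows. In GLY cows the HC over LC value was -0.17 (SE 0.13), and it differed from that in CON cows by -0.51 (SE 0.19, edgeR unadjusted p = 0.010, adjusted p = 0.9985). Cow 912 ranked 9th of 31 for CRP, and without it the values were 0.35 for GLYLC versus CONLC and -0.50 for the interaction.

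HPX, which binds free haem in plasma, gave the smallest p of the 10 genes for concentrate. CONHC cows lay between 4301 and 6854 CPM (median 5217) and CONLC cows between 2551 and 4950 CPM (median 3561). Of the 8 CONLC cows, 7 were below every CONHC cow. In GLYHC the range was 3084 to 8131 CPM (median 4362) and in GLYLC 3117 to 6285 CPM (median 4866). CONHC exceeded CONLC 1.53-fold (log2 0.62, SE 0.18, adjusted p = 0.47), and the HC over LC value over all cows was 0.40 (SE 0.14, adjusted p = 0.17) by edgeR's quasi-likelihood test. DESeq2 on the CON groups alone called HPX at the same log2 value of 0.62 (SE 0.14, Benjamini-Hochberg adjusted p = 0.0067), whereas its adjusted p was 0.23 by DESeq2 over all cows and 0.19 to 0.73 over the edgeR settings. In GLY cows the value was 0.17 (SE 0.19), or 0.26 without cow 912, and the GLY and CON values differed by -0.45 (SE 0.26, edgeR adjusted p = 0.9985), so a different response to concentrate under GLY was not shown.

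CP, the copper-carrying ferroxidase ceruloplasmin, spread over 1490 to 3316 CPM in CONHC and 1206 to 1937 CPM in CONLC, with medians of 1879 and 1450 CPM. Its range was 1272 to 3228 CPM in GLYHC and 1181 to 3472 CPM in GLYLC, with medians of 1926 and 2275 CPM. CONLC had the lowest median and the narrowest range. The log2 fold change was 0.49 for CONHC versus CONLC (SE 0.20, adjusted p = 0.76) and 0.56 for GLYLC versus CONLC (SE 0.20, adjusted p = 0.63) by edgeR's quasi-likelihood test, and -0.07 for GLYHC versus GLYLC (SE 0.20). Without cow 912 the second value was 0.42.

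ITIH4 and ITIH3 belong to the heavy chain family of the inter-alpha-trypsin inhibitors and lie beside each other and ITIH1 in the ARS-UCD2.0 assembly of RefSeq. ITIH4, a major acute phase protein of cattle, ranged from 1577 to 3001 CPM in CONHC (median 1944), 1026 to 1894 in CONLC (median 1562), 1136 to 4141 in GLYHC (median 2101) and 1001 to 5161 in GLYLC (median 1950). Its log2 fold change was 0.45 for CONHC versus CONLC (SE 0.26, edgeR adjusted p = 0.88) and 0.62 for GLYLC versus CONLC (SE 0.26, edgeR adjusted p = 0.80). The latter was 0.29 without cow 912. ITIH3 behaved differently from its neighbour. It reached 1008 to 1864 CPM in CONHC, 557.5 to 2066 in CONLC, 879.8 to 1811 in GLYHC and 820.6 to 2108 in GLYLC, and its CONLC median of 1939 CPM was the highest of the 4 groups. In CONLC, 6 cows lay between 1930 and 2066 CPM and cows 103 and 166 at 557.5 and 1025 CPM. None of its log2 fold changes passed 0.25 in size. The 4 listed partners of this family had a median of -0.01 for HC versus LC, with 0 of 4 at an unadjusted p under 0.05.

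**Figure D2:**
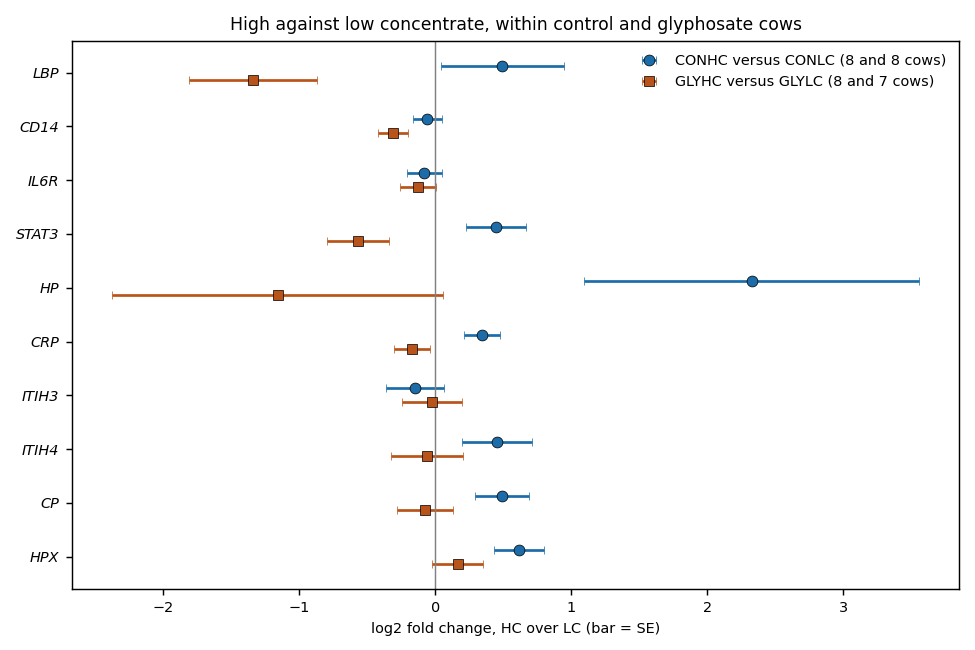
Log2 fold change of HC over LC for each of the 10 genes in CON cows (circles, 8 against 8) and GLY cows (squares, 8 against 7), by edgeR, with bars of 1 SE. Of the 10 genes, 7 have a positive value in CON cows and 1, HPX, in GLY cows. No value was called.

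Set side by side, 7 of the 10 genes had a positive log2 fold change of CONHC over CONLC, with a median log2 fold change of 0.45 beside -0.01 over all genes tested, and 1 of 10 had a positive one of GLYHC over GLYLC, with a median of -0.15. The GLY value depended on cow 912, without which 4 of 10 were positive and the median was -0.10. In CONHC versus CONLC, which does not contain it but shares the estimate of the spread, the number of genes at an unadjusted p under 0.05 then went from 3 to 6, all higher in CONHC, against 7.16% of all genes. Over all cows it went from 2 to 4 in HC versus LC (HP, HPX, ITIH4 and CP, all higher in HC) against 11.9%, in GLYHC versus GLYLC from 3 to 1 (CD14, lower) against 8.37%, and for the interaction from 3 to 2 against 3.47%. Members called stayed at 0 in each of these, by edgeR with the Benjamini-Hochberg adjustment.

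**Figure D3:**
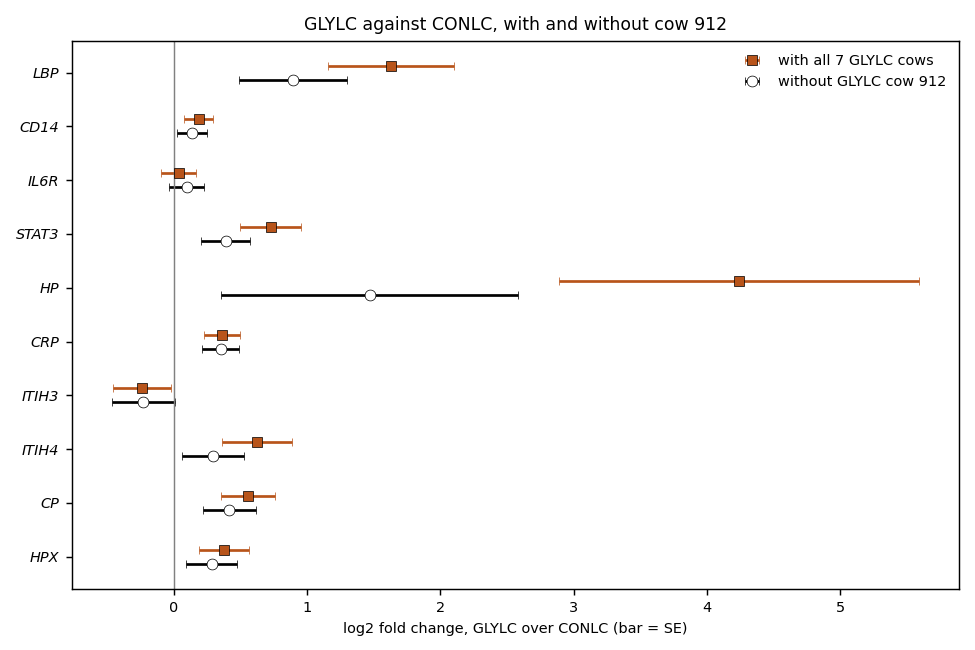
Log2 fold change of GLYLC over CONLC for each of the 10 genes by edgeR, with bars of 1 SE, using all 7 GLYLC cows (squares) and without cow 912 (open circles). HP moves from 4.24 to 1.47 and LBP from 1.63 to 0.89, while CRP stays at 0.36 and 0.35.

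In GLYLC versus CONLC, the 6 genes at an unadjusted p under 0.05 were HP, LBP, STAT3, CP, CRP and ITIH4, all higher in GLYLC, where 3.71% of all genes met this p and were higher. Without cow 912, 4 remained at this p, LBP, STAT3, CP and CRP, against 3.07% of all genes in either direction. The wider list of 24 acute phase genes that rise in inflammation, of which 22 were tested and which shares no gene with the 10, had 8 higher and 0 lower at this p, a median log2 fold change of 0.31 beside -0.0024 over all genes, and 0 called. Without cow 912, 3 were higher and 1 lower. Comparisons with CONLC use the same 8 cows, so the GLYLC and CONHC values against that group are not independent.

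The wider list was also read for concentrate. In CONHC versus CONLC, 1 of the 22 was higher and 0 lower at an unadjusted p under 0.05 (4.55% against 5.96% of all genes), with a median of 0.17. In GLYHC versus GLYLC, 0 were higher and 5 lower at this p (22.7% against 12.5%), with a median of -0.20. In HC versus LC over all cows, 2 were higher and 1 lower (13.6% against 13.7%), with 0 called and a median of -0.09. Without cow 912, 4 were higher and 2 lower over all cows (27.3% against 11.9%), again with 0 called. ORM1, the plasma carrier orosomucoid, had a log2 fold change of 0.49 (SE 0.20, edgeR adjusted p = 0.25), C3, the central complement protein, 0.24 (SE 0.10), and M-SAA3.2, a mammary serum amyloid A, -0.98 (SE 0.40) at no more than 1.004 CPM in any cow. SAA2, a serum amyloid A, ranged from 39.26 to 1542 CPM, SAA3 from 1.59 to 23.69 CPM and SAA4 from 27.27 to 488.5 CPM, and the near-identical sequences of this family leave the split of reads between them uncertain. Of 11 plasma proteins that fall in inflammation, 2 were higher in HC at this p (3 without cow 912) and 0 called, FETUB (0.75, SE 0.23, edgeR adjusted p = 0.12) and the iron carrier TF (0.24, SE 0.087). The 5 listed partners in haemoglobin, haem and copper handling had a median of 0.15 with 0 of 5 at this p.

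Cows of the same group differed widely for several of the 10 genes. The standard deviation of log2 CPM within groups was 2.68 for HP, 31st highest of the 15916 genes tested and 21st of the 6554 with a mean of at least 10 CPM. LBP followed with 0.96, 96th of those 6554 genes, then ITIH4 with 0.53, ITIH3 with 0.48, STAT3 with 0.45, CP with 0.41 and HPX with 0.37. IL6R and CRP had 0.27 and 0.26, and CD14 had 0.22, equal to the median of 0.22 over the 6554 genes. Without cow 912 the values for HP and LBP were 2.40 and 0.83.

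The same cows were high for several genes. Cow 912 was highest for HP, LBP, ITIH4, CP and STAT3, but 20th for ITIH3 and 28th for IL6R. GLYHC cow 32 was highest for CRP and HPX and ranked 2 of 31 for HP and ITIH4. CONHC cow 144 ranked 2 for CP and 3 for HP, ITIH4 and CD14. GLYLC cow 42 was lowest for HP, ITIH4 and CP, and cow 544 of the same group lowest for LBP and STAT3.

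**Figure D4:**
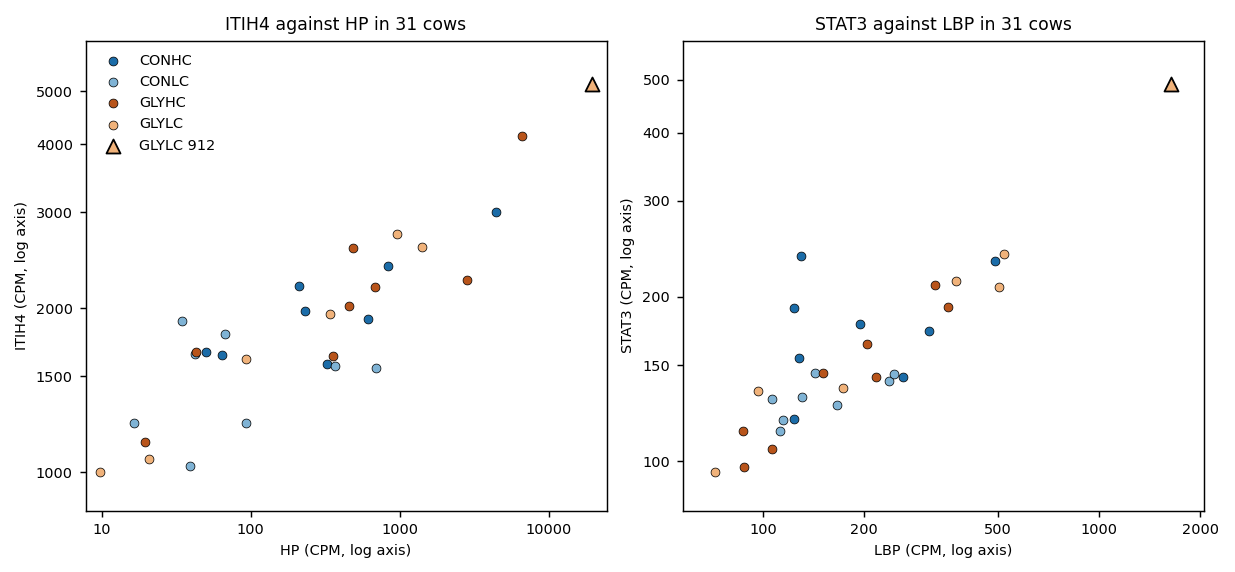
ITIH4 against HP (left) and STAT3 against LBP (right) in the 31 cows, both axes in CPM on log scales, coloured by group, with cow 912 as a triangle. Cows with a higher HP level have a higher ITIH4 level in all groups but CONLC, where the relation is weak, and cow 912 lies at the top right of both panels.

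To describe this, log2 CPM values were centred on the group means and correlated over the 31 cows for the 45 pairs of genes. The p values came from 100000 permutations of cows within groups and were adjusted over the 45 pairs (Benjamini-Hochberg), and 1e-05 is the smallest p these permutations can give. Of the 45 pairs, 27 had an adjusted p under 0.1, all 27 with a positive Pearson r, and the same 27 had an adjusted p under 0.1 by Spearman's rho. Their r ranged from 0.42 to 0.86, was at least 0.43 after leaving out the 2 cows farthest from the median, and at least 0.39 without cow 912. Cows share no library, but all values of a cow share its total and its cell composition. The share of correlated pairs among other genes of similar level was not computed. Whether 27 of 45 pairs is more than such genes would give was therefore not tested.

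HP and ITIH4 had the highest correlation, with r = 0.86 and rho = 0.74 (permutation p = 1e-05 and 5e-05), and r = 0.78 without the 2 farthest cows, GLYLC 42 and 912. LBP and STAT3 had r = 0.85 and rho = 0.76 (permutation p = 3e-05 and 8e-05), and r = 0.73 without GLYLC 544 and 912. For HP and LBP r was 0.82 and rho 0.78 (permutation p = 1e-05 and 2e-05), with 0.73 without cows 42 and 912. Within groups of 7 or 8 cows, HP and LBP had r = 0.85 in CONHC, 0.89 in GLYHC and 0.98 in GLYLC but -0.24 in CONLC, the group with the narrowest HP range. LBP and STAT3 had r = 0.31 in CONHC, 0.69 in CONLC, 0.95 in GLYHC and 0.97 in GLYLC. In the same order, HP and ITIH4 had 0.83, 0.22, 0.88 and 0.99, and HPX and STAT3 -0.09, 0.33, 0.76 and 0.95. The values over the 31 cows thus do not describe each group, and the difference between groups was not tested.

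**Figure D5:**
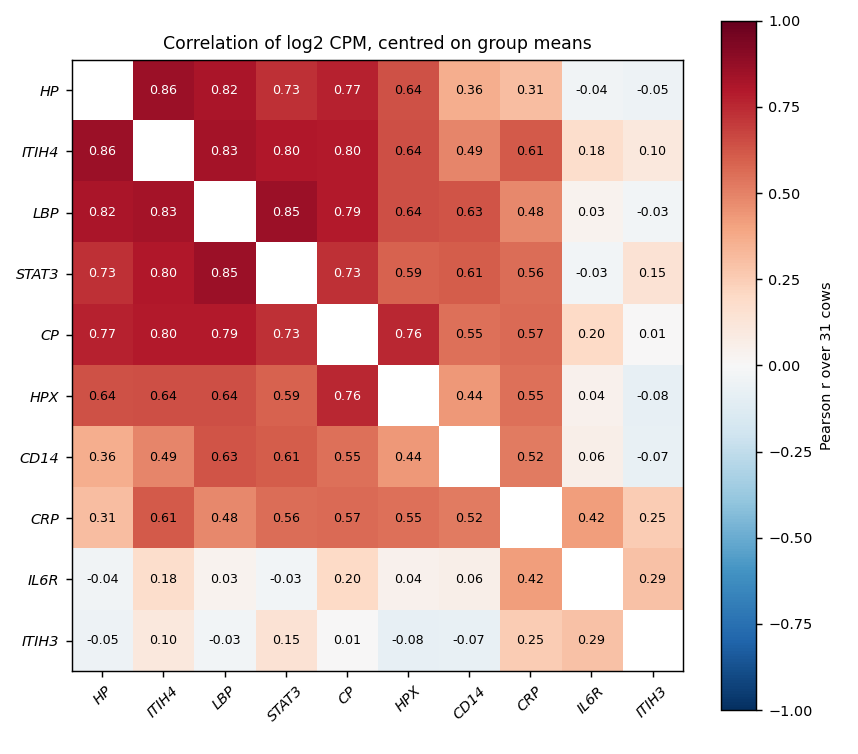
Pearson correlation over 31 cows between the log2 CPM of each pair of the 10 genes, after removal of the group means, from -1 (blue) to 1 (red). HP, ITIH4, LBP, STAT3, CP and HPX correlate with each other at 0.59 to 0.86, while the rows of IL6R and ITIH3 lie between -0.08 and 0.42.

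CD14 and CRP joined this block less tightly. CD14 had r = 0.63 with LBP and 0.61 with STAT3 but 0.36 with HP (permutation p = 0.073, rho = 0.31), and CRP had r = 0.61 with ITIH4 but 0.31 with HP (permutation p = 0.12, rho = 0.31). IL6R correlated at r = -0.03 with STAT3, the factor downstream of it, and -0.04 with HP, and its one pair past the adjusted p was CRP (r = 0.42, rho = 0.40). ITIH3 had no pair past it, including 0.10 with ITIH4.

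With the log2 of reads assigned, r lay between -0.18 for LBP and 0.36 for ITIH3 over the 10 genes, and was -0.03 for HP. HP had r = -0.55 with the hepatocyte marker sum (-0.34 without cow 912) and STAT3 -0.53 (-0.12 without it). The hepatocyte list includes the plasma protein genes ALB, APOA1 and TTR, and SERPINA1, which is also on the wider acute phase list. Its sum can therefore move with the expression of these genes as well as with hepatocyte content, and these were not separated. With the intestinal marker sum, STAT3 had r = 0.63 and 0.24 without cow 912. Other values changed less without that cow. IL6R had r = -0.62 with the lymphocyte marker sum (-0.58 without it), and ITIH3 -0.60 with the stellate and fibroblast sum (-0.60). CONLC cow 103 was the lowest cow for ITIH3 (557.5 CPM) and had the stellate and fibroblast sum of 2139 CPM. The other groups reached at most 299.4 CPM for that sum. The ITIH3 value without cow 103 was not computed, so it may rest on this cow. CP had 0.56 with the intestinal sum (0.50) and -0.47 with the endothelial sum (-0.48). The part of cell composition in the covariation was not tested.

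The genes most alike each of the 10 were sought by the same centred correlation among 10148 other genes with a symbol and a mean of at least 2 CPM. For HP these were SAA2 (r = 0.88), SERPINA3-8 (0.86), a serine protease inhibitor, and ITIH4. LBP was most like the fibrinogen chains FGB (0.92) and FGG (0.91), followed by SERPINA3-8 (0.90), and ITIH4 like the same 3 genes, FGG (0.89), FGB (0.88) and SERPINA3-8 (0.88). STAT3 was most like FGA (0.92), another fibrinogen chain, WWC1 (0.91) and FGG (0.91). Without cow 912 the first gene was the same for HP, LBP and STAT3, with r of 0.86, 0.90 and 0.88, while FGG ranked 3 for ITIH4. The bovine SERPINA3 genes are close copies, so their counts are uncertain.

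CP was most like SERPINA3-8 (0.84), the complement gene C4A (0.84) and SERPINA3-7 (0.83), and HPX like C4A (0.76), CP (0.76) and SERPINA3-3 (0.75). CRP was most like the terminal complement components C5 (0.79) and C6 (0.79) and SERPINA10 (0.77). CD14 was most like DAB1 (0.72), C4BPA (0.71), which regulates complement, and IGSF5 (0.71). Without cow 912, SERPINA3-8 and SERPINA3-7 ranked 3 and 6 for CP, and DAB1, C4BPA and IGSF5 ranked 2, 6 and 7 for CD14. The genes named for IL6R and ITIH3 held no acute phase gene. For IL6R these included CTDSP2 (0.87) and the urate transporter SLC2A9 (0.84), and for ITIH3 the choline kinase CHKB (0.64), the urea cycle enzyme ARG1 (0.62) and DCAF12 (0.62).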

How the data were processed

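Total RNA from liver biopsies of 31 cows was sequenced by the authors from TruSeq Stranded mRNA libraries. Per the labels and the methods, reads were trimmed with Trim Galore (Phred 20, at least 30 nt), aligned with HISAT2 2.1.0 to UMD3.1 (Ensembl release 93) and counted per gene with HTSeq 0.8.0. Whether the counting used strand is not given in the sources used here. The deposited raw read counts, whole numbers per gene and cow, were used, and the deposited normalized table was not. The 4961 rows without a symbol stayed in the tests.

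Genes with at least 20 reads summed over the cows (15916 of 24616) were tested with edgeR 4.0.16 in R 4.3.3 (TMM, quasi-likelihood F test, 4 groups in 1 fit, or both factors additively for comparisons over all cows). A gene was called at p under 0.05 and Benjamini-Hochberg adjusted p under 0.1 over all genes, the limits of the study. SEs were derived from the fold change and the F statistic. Log2 CPM used a prior count of 2. Alternatives were RLE and upper-quartile scaling, other read filters, DESeq2 1.42.0, a robust fit, fits on the compared groups alone, an adjusted p under 0.05 and each cow left out. Correlations were run in Python 3.11.15. The scripts were tested on simulated data.

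Groups came from the sample titles, and each library is a different animal by its label. The labels name no batch. The 105 pairs of cows within groups differed by 24.52 to 486.7 times the counting variance per gene, far more than sampling noise, so all 31 were treated as separate samples. With at least 243 reads for each of the 10 genes in each cow, the spread between cows and not counting error limits these values. The 10 genes and the lists of related and marker genes were chosen with earlier results of these data known. Named beside the 10 were list genes that were called, the 3 of a list with the smallest p for HC versus LC over all cows where they were at p under 0.05, the SAA, TLR4, LY96, IL6ST and SOCS3 genes, and the 3 genes most alike each of the 10. 1 of the genes most alike IL6R is not reported here. SAA1, CEBPB and SOX9 were not matched by symbol. RefSeq names and neighbours were read for ARS-UCD2.0, whose coordinates are not those of UMD3.1 and are not given.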

Additional observations from a re-analysis of the deposited data

Results flagged for a closer look

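In 6 of the 40 sets formed by a gene and a feeding group, 1 cow lay far above the others of its group, judged in CPM by its gap to the next cow as a share of the group's range, a rule that chance meets in about 1 set in 20 where values are normally distributed, which was not tested for these CPM. HP was 4435 CPM in CONHC cow 144 (next cow 835.9), 6569 CPM in GLYHC cow 32 (next 2807) and 19490 CPM in GLYLC cow 912 (next 1401). The remaining 3 were in cow 912, with LBP at 1641 CPM (next 520), ITIH4 at 5161 CPM (next 2736) and STAT3 at 491.8 CPM (next 239.5). On the log2 scale 0 of these 6 gaps were large enough to be singled out, and no cow was left out of the main values for them.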

How the results depend on the processing

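The number of the 10 genes called was 0 in each of the 7 comparisons under RLE and upper-quartile scaling, both other read filters, the robust fit, DESeq2 over all cows, the stricter adjusted p and each of the 31 omissions of a cow. It was also 0 in the 4 pairwise comparisons by edgeR on the compared groups alone. The exception was DESeq2 on the CONHC and CONLC cows alone, which called 2, HPX and STAT3. DESeq2 on the GLYHC and GLYLC cows alone gave HP a log2 fold change of 0.50 in place of -1.16. DESeq2's default replacement of outlier counts was left on, and its part in this difference was not tested. Of the single log2 fold changes, 497 of those under the other settings kept their sign and call, as did 2121 of those with a cow left out, while 49 of the latter changed sign.

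With a cow left out, HC versus LC over all cows ranged from -0.09 to 1.99 for HP and from -0.10 to 0.13 for STAT3. GLYHC versus GLYLC ranged from -2.19 to 1.61 for HP, -0.12 to 0.10 for ITIH3, -0.25 to 0.27 for ITIH4 and -0.18 to 0.0695 for CP. GLYHC versus CONHC ranged from -0.28 to 2.1 for HP, -0.38 to 0.0762 for LBP, -0.0818 to 0.21 for ITIH4, -0.12 to 0.11 for CP, -0.20 to 0.0017 for HPX and -0.0522 to 0.0422 for IL6R. For IL6R the ranges were -0.0409 to 0.10 in GLYLC versus CONLC, -0.0233 to 0.0422 in GLY versus CON and -0.11 to 0.0331 for the interaction. The cows behind the HP limits were 144, 32 and 912, and the causes were not tested. Correlated pairs numbered 27 under every setting but without cow 912 (29). No paired analysis was possible because each replicate number is an animal's own and no number occurs in more than 1 group.

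Among the lists, DESeq2 over all cows called 1 plasma protein that falls in inflammation in HC versus LC and 1 acute phase gene in GLYHC versus GLYLC, where edgeR called 0. Without the read filter, 1 Kupffer cell marker was called. These list settings and the p-value counts with each cow left out were chosen after seeing the data. The number of the 10 genes at an unadjusted p under 0.05 also moved with the cow left out. In GLY versus CON over all cows it was 0 without cow 32 or 912 and 4 without cow 144 or 159. For the interaction it was 2 without cow 912 and 6 without cow 32 or 152. In GLYLC versus CONLC it was 4 without cow 912 and 8 without cow 544. Where a cow other than 912 was left out, no share of all genes is given beside these counts.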
